A study of Oryza sativa with 4 samples.

Results

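Rice leaves after 2 d without water were compared with rice leaves after 1 d without water, across 26632 of the 37869 loci in the gene table. A locus entered when its most abundant transcript had at least 50 reads in both libraries together, and 11237 loci had fewer. All plants were wild type rice (Oryza sativa cv. Ilmi), 5 weeks old and grown in soil in a greenhouse. In the study soil moisture was 10% at 2 d and 40% at 1 d, against 7% at 3 d and 75% in the well-watered control (C), which was not used for the comparison. Each condition was 1 library made from leaves pooled over several plants and pots before RNA extraction. There was therefore no replicate check of any difference given here, and no test across plants was made. The hour of sampling is not given in the sources used here, and day of sampling and soil moisture changed together, so that they cannot be told apart.

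When soil dries, plants make the hormone abscisic acid (ABA), which closes stomata and switches on genes through bZIP transcription factors. ABA acts by inhibiting a group of protein phosphatases 2C, which releases SnRK2 kinases (SAPK in rice). Late embryogenesis abundant (LEA) proteins, of which dehydrins are one class, and sugars of the raffinose family are made in drying tissue and in seeds. Leaves under prolonged drought also lose chlorophyll and reduce the expression of photosynthetic genes.

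Levels are given as CPM, the usual scaling of a count to the mapped gene reads of its library, and differences are log2 ratios of CPM at 2 d over 1 d. Brackets after a log2 ratio or a share of reads hold its exact 95% interval, which covers counting error only. The libraries held 60322263 reads at 2 d and 52626188 reads at 1 d. A locus was called higher or lower at a difference of at least 2-fold. Of the 26632 loci, 5280 were higher at 2 d (19.8%) and 9507 were lower (35.7%), while 11845 lay within 2-fold. At 8-fold or more, 1492 loci were higher (5.6%) and 1998 were lower (7.5%). The median log2 ratio was −0.42, with quartiles of −1.51 and 0.67. With edgeR TMM factors, which centre the bulk of the genes, 6645 loci were higher and 7604 lower, and with the DESeq2 median of ratios 6938 were higher and 7281 lower. The share of calls that were higher was thus 35.7% when scaled to mapped reads, 46.6% with TMM and 48.8% with the median of ratios. The TMM factors moved every log2 ratio by 0.33 and the median of ratios by 0.39, so the medians of gene groups are best read against the −0.42 of all loci. Since leaves were sampled in bulk, fewer cells of a type and less RNA per cell cannot be told apart.

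**Figure D1:**
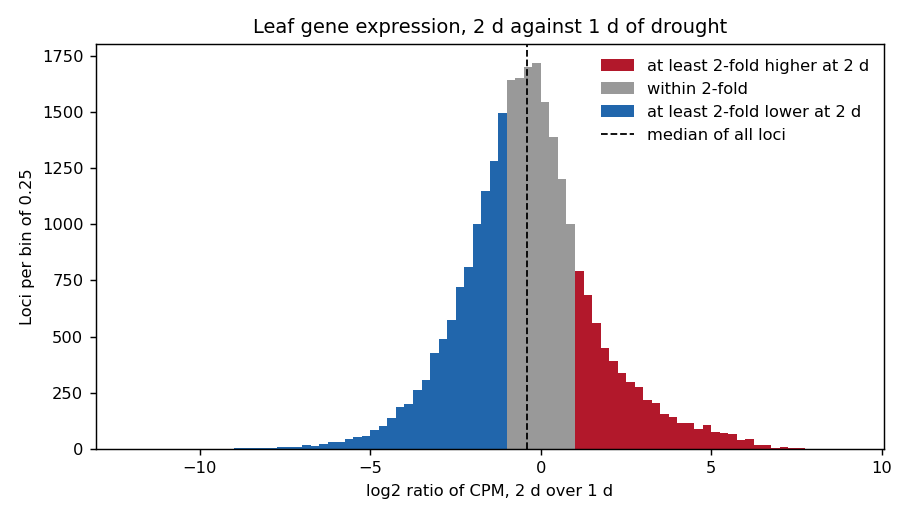
Number of loci (vertical axis, per bin of 0.25) by log2 ratio of CPM at 2 d over 1 d (horizontal axis), for 26632 loci. Red marks the 5280 loci at least 2-fold higher at 2 d, blue the 9507 at least 2-fold lower and grey those within 2-fold; the dashed line is the median, −0.42.

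Genes of dehydration protection had the highest median of the lists made from annotation words. A list of 9 genes that the study itself named, dehydrins and LEA proteins among them, had a higher one, 5.57. Of 30 dehydrin and LEA loci, 24 were higher at 2 d and 2 were lower, with a median log2 ratio of 5.48. The share of reads was taken over all 35 such loci in the gene table, those under the read minimum included. It was 0.938% of all gene reads at 2 d [0.936 to 0.940], against 0.0309% at 1 d [0.0304 to 0.0314]. The dehydrin Os02g0669100-01 (Dip1 in the study), a hydrophilic protein that protects membranes and enzymes, was at 49.9 CPM in C, 91.4 at 1 d, 4236 at 2 d and 4176 at 3 d. Its difference between 2 d and 1 d (log2 ratio 5.53 [5.49 to 5.58]) was the largest gain in CPM of any locus. Nearly all of the change thus lay between 1 d and 2 d. The water-stress inducible dehydrin RAB21 (Os11g0454300-01) was at 8.66, 20.9, 897 and 3334 CPM in C and at 1, 2 and 3 d. It was thus higher again at 3 d, and reads may be split between it and the neighbouring RAB16 genes. The dehydrin Rab25 (Os01g0702500-01) had 996 reads at 2 d and 4 at 1 d (log2 ratio 7.76 [6.40 to 9.64]).

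The LEA loci did not all move alike. The LEA repeat protein Os03g0322900-00 was at 259 CPM at 2 d, against 2.55 at 1 d (log2 ratio 6.67 [6.42 to 6.92]). It stood at 107 CPM at 3 d, below its level at 2 d. Another repeat protein, Os01g0705200-01, was at 423 CPM at 2 d and 5.66 at 1 d, and at 543 CPM at 3 d. The 2 loci that were lower, Os06g0119900-01 and Os05g0584200-02, are both LEA14-type proteins, with log2 ratios of −1.95 and −1.16, and Os05g0584200-02 was within 2-fold with either other scaling. LEA14-type proteins differ from the other LEA classes in having a folded, less hydrophilic structure.

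Protective sugars followed. Of 16 loci of galactinol, raffinose and trehalose metabolism, 10 were higher and 4 lower, with a median log2 ratio of 1.82. Galactinol synthase, which makes the galactosyl donor for raffinose, was at 505 CPM at 2 d and 10.9 at 1 d (Os03g0316200-01, log2 ratio 5.54 [5.42 to 5.66]). The water stress protein WSI76 (Os07g0687900-01), of the same enzyme family, was at 1107 CPM at 2 d and 39.3 at 1 d. A raffinose synthase (Os01g0170000-01) was at 114 CPM at 2 d and 4.37 at 1 d, whereas other raffinose synthase loci, Os12g0555400-01 and Os08g0495800-01, were lower, with log2 ratios of −2.94 and −1.54. Trehalose-6-phosphate phosphatase, which releases trehalose, rose at Os03g0386500-01 to 98.2 CPM at 2 d, against 2.07 at 1 d. For proline, 1 of 4 loci was called: the synthesis enzyme pyrroline-5-carboxylate synthetase (Os05g0455500-02) was at 227 CPM at 2 d and 37.7 at 1 d.

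Of 25 HSP70, HSP90 and HSP101 loci, 10 were higher (40%) and 1 lower (4%), with a median of 0.64. Of 23 small heat shock proteins 7 were higher (30.4%) and 5 lower (21.7%). Over all loci 19.8% were higher and 35.7% lower. Heat shock protein 70 (Os03g0277300-01), which refolds proteins, was at 18.1 CPM at 2 d, 2.17 at 1 d and 103 at 3 d. The small heat shock protein Oshsp17.3 (Os03g0266900-02) was at 35.5 CPM at 2 d and 4.58 at 1 d, while a cytosolic class I member (Os02g0128000-00) was at 1.33 CPM at 2 d and 6.50 at 1 d. With the median of ratios, 14 of the HSP70, HSP90 and HSP101 loci were higher and 0 lower, and 10 of the small heat shock proteins were higher and 3 lower. Over all 26632 loci that scaling gave 6938 higher and 7281 lower. The small heat shock proteins thus had members in both directions under either scaling.

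**Figure D2:**
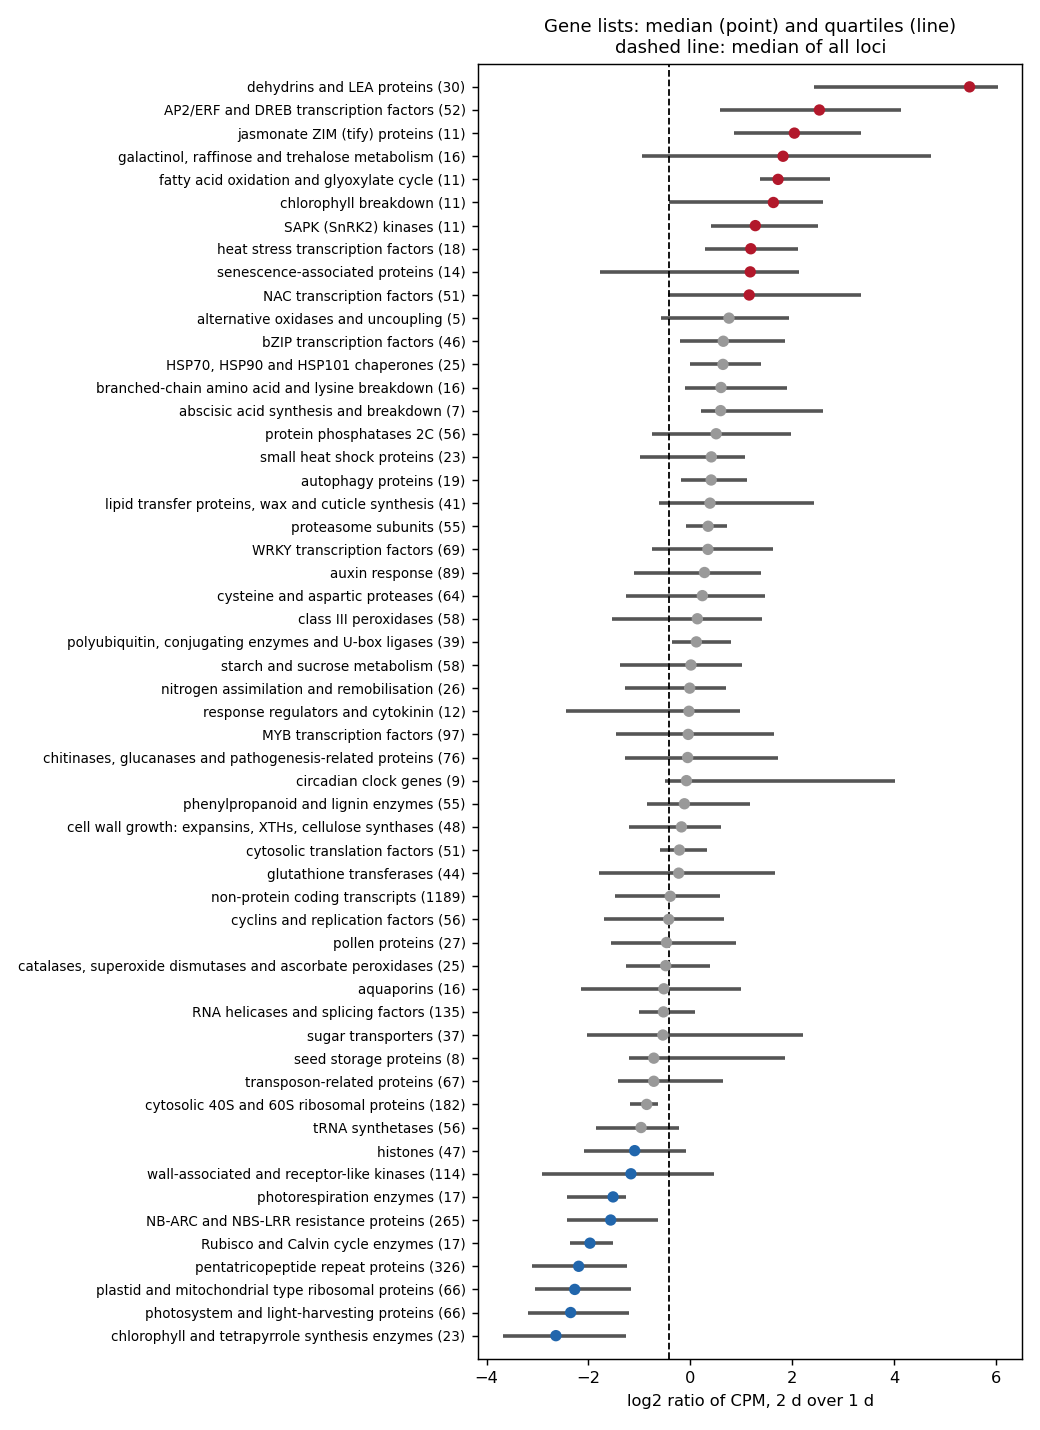
Median (point) and quartiles (line) of the log2 ratio of CPM at 2 d over 1 d (horizontal axis) for gene lists with at least 5 members, with the number of members in brackets. Red points have a median of at least 1 and blue points of at most −1; the dashed line is the median of all loci, −0.42, and dehydrins and LEA proteins stand farthest to the right at 5.48. The list of genes named in the study is not drawn.

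Within ABA metabolism, a synthesis gene and a breakdown gene were higher while the other loci were not called. Viviparous-14 in maize is the enzyme that cleaves carotenoids in the rate-limiting step of ABA synthesis. The locus Os07g0154100-01, annotated as similar to it, was at 6.79 CPM in C, 15.6 at 1 d, 984 at 2 d and 826 at 3 d (log2 ratio of 2 d over 1 d 5.98 [5.88 to 6.08]). The other locus with this annotation, Os12g0617400-01, was at 5.39 CPM at 2 d, 3.57 at 1 d and 29.3 at 3 d, and was not called. Zeaxanthin epoxidase (Os04g0448900-00), an earlier enzyme of the pathway, was at 569 CPM at 2 d and 456 at 1 d, also within 2-fold. ABA 8'-hydroxylase (Os02g0703600-01), which breaks ABA down, was at 42.6 CPM in C, 2.24 at 1 d, 50.8 at 2 d and 50.1 at 3 d. The level at 2 d was 22.7 times that at 1 d and close to that in C, and 1 d was the low point of the series. Over the 7 loci of synthesis and breakdown, 2 were higher (28.6%) and 0 lower, against 19.8% and 35.7% of all loci.

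Among loci annotated as protein phosphatases 2C, 24 of 56 were higher (42.9%) and 12 lower (21.4%), against 19.8% and 35.7% of all loci. Their median was 0.51. The list was not limited to the phosphatases that act in ABA signalling. The phosphatase Os06g0698300-01 was at 589 CPM at 2 d and 14.1 at 1 d, and Os05g0572700-02 at 42.2 CPM at 2 d and 0.684 at 1 d. Of the 11 SAPK kinases, 6 were higher and 0 lower, by smaller amounts. SAPK6 (Os02g0551100-01) was at 334 CPM at 2 d and 62.3 at 1 d, and SAPK2 (Os07g0622000-01) at 237 CPM at 2 d and 73.5 at 1 d. SAPK9 (Os12g0586100-01) was at 54.4 CPM at 2 d and 67.5 at 1 d, and reached 289 CPM only at 3 d. The phosphatases 2C and the SAPK kinases thus both had members that were higher at 2 d. Of 46 loci annotated as bZIP transcription factors, 18 were higher (39.1%) and 7 lower (15.2%), with a median of 0.65. Their log2 ratios ran from −5.31 to 6.07. The ABA response element binding factor Os01g0859300-01, a bZIP protein outside that list, had 234 reads at 2 d and 2 at 1 d (log2 ratio 6.67 [4.80 to 9.73]).

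Transcription factor families differed in how one-sided they were. In the AP2/ERF family, which holds the DREB factors that bind the dehydration responsive element, 34 of 52 loci were higher and 2 lower, with a median of 2.53. A locus annotated as similar to DREB2B (Os02g0656600-00) had 327 reads at 2 d and 2 at 1 d (log2 ratio 7.16 [5.29 to 10.21]). An AP2 domain protein (Os11g0242300-00) had 497 reads at 2 d and 0 at 1 d, and was at least 145-fold higher when the 0 was set at 3 reads. In the opposite direction, an ethylene-responsive factor (Os09g0287000-01) was at 2.55 CPM at 2 d and 79.1 at 1 d. Of 51 NAC loci, a plant family with roles in stress and leaf senescence, 27 were higher and 7 lower (median 1.15). The NAC protein Os11g0126900-01, annotated with drought tolerance, was at 153 CPM at 2 d and 3.21 at 1 d. The more abundant Os01g0884300-01 was at 1556 CPM at 2 d, 129 at 1 d and 2640 at 3 d.

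Of 97 MYB loci 35 were higher (36.1%) and 32 lower (33.0%), against 19.8% and 35.7% of all loci. Among 69 WRKY loci 26 were higher (37.7%) and 11 lower (15.9%). The MYB protein MybSt1 (Os05g0442400-01) was at 24.4 CPM at 2 d and 0.171 at 1 d, and WRKY1 (Os03g0335200-01) at 0.182 CPM at 2 d and 7.94 at 1 d. Among 18 heat stress transcription factors, 11 were higher and 1 lower. Factor C-2b (Os06g0553100-01) was at 77.8 CPM at 2 d and 1.37 at 1 d. Of the 11 tify proteins, repressors of jasmonate responses, 8 were higher and 0 lower. For Os10g0391400-01 1 d was the low point of the series. It had 677 reads in C, 15 at 1 d, 487 at 2 d and 1707 at 3 d. A WRKY locus, Os02g0181300-01, showed the same shape, with 62.9 CPM in C, 7.89 at 1 d, 68.2 at 2 d and 68.7 at 3 d.

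Among cytokinin genes, 3 of 12 were higher (25%) and 5 lower (41.7%), near the 19.8% and 35.7% of all loci. A-type response regulators, which dampen cytokinin signalling, were already lower at 1 d than in C at the loci named here. Os12g0139400-01 was at 74.1 CPM in C, 14.1 at 1 d, 2.50 at 2 d and 1.74 at 3 d, and Os11g0143300-01 was at 51.1, 7.83, 1.84 and 1.18 CPM. Both were thus lower at each later day. Another A-type regulator, Os04g0673300-01, was at 19.9 CPM in C, 2.68 at 1 d, 18.9 at 2 d and 46.0 at 3 d. Of 89 auxin response loci 28 were higher (31.5%) and 25 lower (28.1%). An auxin efflux carrier domain protein (Os09g0491740-01) was at 187 CPM at 2 d and 7.62 at 1 d, and a GH3 family protein (Os01g0221100-01) was at 0.497 CPM at 2 d and 21.9 at 1 d.

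**Figure D3:**
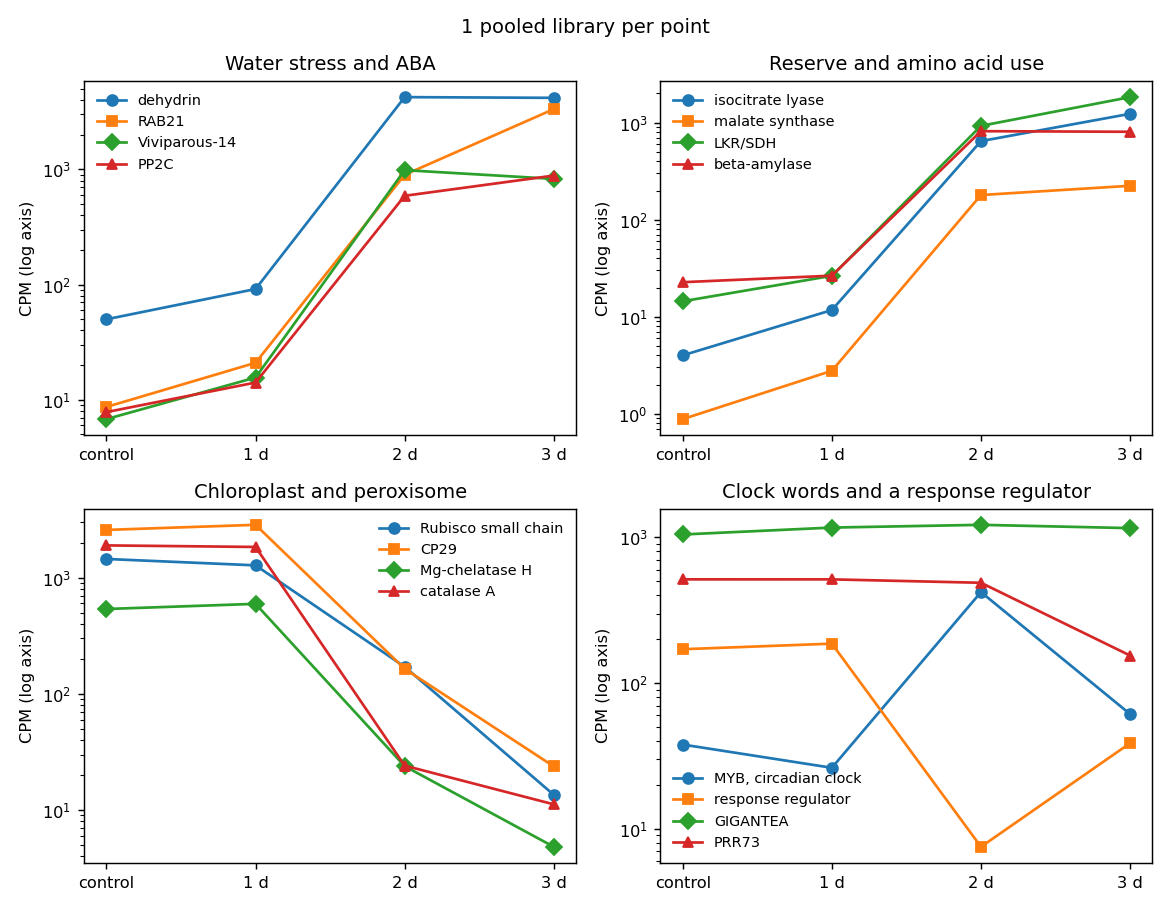
CPM on a log axis (vertical) in the control and at 1, 2 and 3 d (horizontal) for 4 genes in each of 4 groups, with 1 pooled library per point. As fold changes, the water stress and reserve genes rose mainly between 1 d and 2 d. In CPM, RAB21 and LKR/SDH were well above their 2 d level at 3 d. The chloroplast genes and catalase A, a peroxisomal enzyme, dropped between 1 d and 2 d and were lower still at 3 d. The MYB clock gene stood at 421 CPM at 2 d against 26.1 at 1 d.

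Of 11 loci of fatty acid oxidation and the glyoxylate cycle, 10 were higher and 1 lower, with a median of 1.72. Isocitrate lyase (Os07g0529000-01) and malate synthase (Os04g0486950-01) are the enzymes specific to the glyoxylate cycle, which turns acetyl units from fat into sugar precursors. Isocitrate lyase was at 646 CPM at 2 d and 11.7 at 1 d, and malate synthase at 180 CPM at 2 d and 2.77 at 1 d. The locus that was lower, an acyl-CoA oxidase (Os06g0347100-01), was at 140 CPM at 2 d and 281 at 1 d, and was within 2-fold with either other scaling. Lysine ketoglutarate reductase/saccharopine dehydrogenase, which starts lysine breakdown, was at 928 CPM at 2 d and 26.4 at 1 d (Os02g0783625-00). The neighbouring locus Os02g0783700-01 carries the same annotation and was also higher (log2 ratio 5.19 [5.05 to 5.34]), and both may share reads. Isovaleryl-CoA dehydrogenase (Os05g0125500-01), of leucine breakdown, was at 301 CPM at 2 d and 40.6 at 1 d. Over the 16 loci of branched-chain amino acid and lysine breakdown, 6 were higher (37.5%) and 3 lower (18.75%), against 19.8% and 35.7% of all loci.

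Starch and sucrose enzymes did not move as a group, with 15 of 58 higher (25.9%) and 18 lower (31.0%). Over all loci 19.8% were higher and 35.7% lower. Single beta-amylases, which release maltose from starch, were among the rises: Os03g0141200-01 was at 817 CPM at 2 d and 26.5 at 1 d. Of 26 loci of nitrogen assimilation and remobilisation, 5 were higher (19.2%) and 8 lower (30.8%), near the shares of all loci. Their largest change was at asparagine synthetase (Os03g0291500-01), which packs nitrogen for transport, with 2954 reads at 2 d and 44 at 1 d. Sugar transporters went in both directions, with 13 of 37 loci higher (35.1%) and 17 lower (45.9%). The highest of them, an MtN3 protein (Os02g0513100-01), was at 320 CPM at 2 d, 3.53 at 1 d and 85.6 at 3 d. Another MtN3 family locus, Os01g0881300-02, was at 4.54 CPM at 2 d and 82.5 at 1 d. Among the largest gains in CPM was also an ATP-dependent Clp protease subunit (Os02g0526400-01), at 3026 CPM at 2 d and 144 at 1 d, and a polyubiquitin (Os02g0161900-01), at 2671 CPM at 2 d and 639 at 1 d. Proteasome subunits mostly stayed within 2-fold. Of 55 loci, 7 were higher (12.7%) and 3 lower (5.5%) when scaled to mapped reads, both below the shares of all loci. Their median was 0.35, against −0.42 for all loci. With TMM 16 were higher and 2 lower, against 6645 and 7604 of all 26632 loci.

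Photosynthetic genes fell together. Of 66 photosystem and light-harvesting loci, 52 were lower at 2 d and 3 were higher, with a median log2 ratio of −2.35. The 70 such loci in the gene table held 0.804% of gene reads at 2 d [0.802 to 0.806]. They held 3.86% at 1 d [3.85 to 3.86], close to the 3.80% in C. The light-harvesting protein CP29 (Os07g0558400-01) was at 164 CPM at 2 d and 2854 at 1 d (log2 ratio −4.12 [−4.15 to −4.09]). It was at 2581 CPM in C and 23.7 at 3 d, so the decline went on after 2 d. The oxygen-evolving complex protein Os01g0501800-01 was at 421 CPM at 2 d and 2910 at 1 d. A PsbQ family protein (Os07g0105600-01) had a steeper difference, with 30 reads at 2 d and 5071 at 1 d. The 22 kDa protein of photosystem II (Os04g0690800-01), which in Arabidopsis serves in the dissipation of excess light, went against the group, at 73.6 CPM at 2 d and 5.36 at 1 d.

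Carbon fixation and chlorophyll synthesis showed the same direction. Of 17 Rubisco and Calvin cycle loci, 15 were lower and 0 higher. The Rubisco small chain RbcS1 (Os12g0274700-01) was at 1450 CPM in C, 1278 at 1 d, 171 at 2 d and 13.5 at 3 d. Rubisco activase (Os11g0707000-02), which keeps the enzyme active, was at 368 CPM at 2 d and 419 at 1 d, within 2-fold, and at 31.1 CPM at 3 d. Loci annotated as the Rubisco large chain, a plastid gene product, may share reads with plastid transcripts and are uncertain. Of 23 chlorophyll and tetrapyrrole synthesis loci, 20 were lower and 1 higher, with the lowest median of any list, −2.64. Magnesium chelatase subunit H (Os03g0323200-01), at the entry to the chlorophyll branch, was at 23.8 CPM at 2 d and 596 at 1 d. Protochlorophyllide reductase B (Os10g0496900-01) was at 13.8 CPM at 2 d and 537 at 1 d. The locus that was higher (Os01g0631200-01) is annotated as an enzyme of siroheme synthesis, a side branch, and was at 18.8 CPM at 2 d and 3.36 at 1 d.

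Chlorophyll breakdown went the other way in part, with 6 of 11 loci higher and 2 lower. Chlorophyll b reductase (Os01g0227100-01), which starts the breakdown of the antenna pigment, was at 1005 CPM at 2 d and 325 at 1 d. Red chlorophyll catabolite reductase (Os10g0389200-01) was at 262 CPM at 2 d and 25.3 at 1 d. A staygreen domain protein (Os04g0692600-01) was at 7.74 CPM at 2 d and 16.1 at 1 d (log2 ratio −1.05 [−1.22 to −0.89]). Its interval reached inside 2-fold, and it was within 2-fold with TMM and with the median of ratios. Of 17 photorespiration loci, 13 were lower and 1 higher. The H protein of glycine cleavage (Os10g0516100-01) was at 10.9 CPM at 2 d and 161 at 1 d, while an alanine:glyoxylate aminotransferase-like protein (Os05g0475400-01) was at 327 CPM at 2 d and 6.92 at 1 d. Catalase A (Os02g0115700-01), which removes hydrogen peroxide, was at 24.1 CPM at 2 d and 1841 at 1 d (log2 ratio −6.26 [−6.33 to −6.18]).

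**Figure D4:**
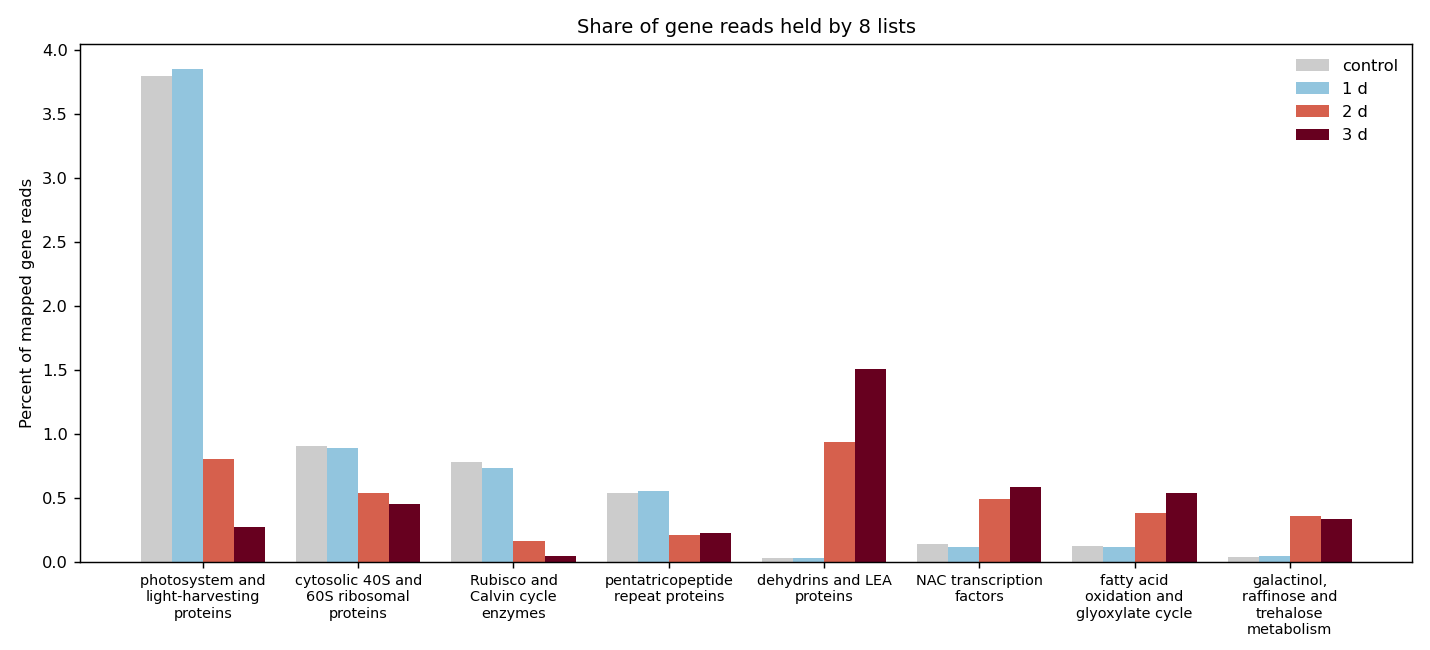
Percent of mapped gene reads (vertical axis) held by 8 gene lists in the control and at 1, 2 and 3 d (bars, 1 library each). All loci of a list in the gene table are counted. Photosystem and light-harvesting loci held 0.804% at 2 d and 3.86% at 1 d, and dehydrins and LEA proteins 0.938% at 2 d and 0.0309% at 1 d.

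The machinery that expresses organelle genes fell with photosynthesis. Of 66 plastid and mitochondrial type ribosomal proteins, 52 were lower and 0 higher (median −2.27). Chloroplast ribosomal protein L4 (Os03g0265400-01) was at 1.54 CPM at 2 d and 37.3 at 1 d. Pentatricopeptide repeat proteins, which process and edit organelle RNA, form a large family in plants, and 261 of 326 loci were lower and 10 higher, with a median of −2.19. One of them, Os03g0856100-01, had 39 reads at 2 d and 4697 at 1 d. Of 182 cytosolic ribosomal proteins, 71 were lower (39.0%, near the 35.7% of all loci) and 0 higher, with a median of −0.86. With TMM 32 of them were lower and with the median of ratios 28, so that this count depended on the scaling.

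Resistance and receptor genes were mostly lower. Of 265 NB-ARC and NBS-LRR loci, intracellular receptors for pathogens, 176 were lower and 12 higher (median −1.56). The NB-ARC locus Os08g0246300-01 had 21 reads at 2 d and 2600 at 1 d. Of 114 wall-associated and receptor-like kinases, 62 were lower and 19 higher, and the abundant receptor kinase Os07g0628700-01 was at 10.6 CPM at 2 d and 994 at 1 d. These families hold close copies, among which reads may be split. Histones were lower in 25 of 47 loci and higher in 4, and histone H1 (Os04g0253000-01) was at 18.9 CPM at 2 d, 227 at 1 d and 104 in C. Of 48 cell wall growth loci 8 were higher (16.7%) and 17 lower (35.4%), near the 19.8% and 35.7% of all loci. Their lowest member was the expansin OsEXPA4 (Os05g0477600-01), which loosens cell walls in growing tissue. It had 1 read at 2 d and 648 at 1 d (log2 ratio −9.54 [−14.84 to −7.05]).

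Of 25 catalase, superoxide dismutase and ascorbate peroxidase loci, which remove reactive oxygen, 2 were higher (8%) and 9 lower (36%, near the 35.7% of all loci). The chloroplast iron superoxide dismutase (Os06g0115400-01) was at 2.97 CPM at 2 d and 41.5 at 1 d, and an ascorbate peroxidase (Os08g0522400-01) at 8.52 CPM at 2 d and 149 at 1 d. Glutathione transferases had 14 of 44 loci higher (31.8%) and 16 lower (36.4%), against 19.8% and 35.7% of all loci. Of 16 aquaporins, channels for water, 4 were higher (25%) and 6 lower (37.5%), near the shares of all loci. Aquaporin 2 (Os09g0541000-01) was at 20.2 CPM at 2 d and 312 at 1 d, whereas the aquaporin Os07g0448800-01 was at 384 CPM at 2 d, 71.5 at 1 d and 123 at 3 d.

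Of 41 lipid transfer, wax and cuticle loci 14 were higher (34.1%) and 9 lower (22.0%), against 19.8% and 35.7% of all loci. A 3-ketoacyl-CoA synthase (Os05g0574600-01), of the family that elongates the fatty acids of waxes, had 2603 reads at 2 d and 79 at 1 d, and was at 260 CPM at 3 d. Of 76 chitinase, glucanase and pathogenesis-related loci 27 were higher (35.5%) and 23 lower (30.3%). A class III chitinase homologue (Os11g0701000-01) had 1511 reads at 2 d and 45 at 1 d, and a beta-1,3-glucanase-like protein (Os03g0792800-01) was at 125 CPM at 2 d and 3.19 at 1 d. These enzymes digest fungal cell walls.

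Genes annotated with the circadian clock did not move as a group, but single ones moved strongly. Of 9 loci, 3 were higher (33.3%) and 1 lower (11.1%), against 19.8% and 35.7% of all loci. With TMM or the median of ratios 3 were higher and 0 lower. The MYB clock factor Os08g0157600-01 was at 37.8 CPM in C, 26.1 at 1 d, 421 at 2 d and 61.2 at 3 d. A response regulator receiver protein, Os02g0618200-01, which was chosen after its values were seen, was at 171, 186, 7.49 and 38.6 CPM in C and at 1, 2 and 3 d. Both stood apart at 2 d from the libraries before and after it. GIGANTEA (Os01g0182600-03) was at 1220 CPM at 2 d and 1168 at 1 d, and PRR73 (Os03g0284100-01) at 488 CPM at 2 d and 515 at 1 d. Clock genes cycle within a day, and the part of sampling hour in these differences was not tested.

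The libraries not used for the calls, 3 d and C, were read in the same loci. Of 5042 loci higher at 2 d over 1 d with at least 50 reads in these libraries, 77.1% were at least 2-fold higher at 3 d than in C, against 19.1% of all 25886 loci read. Of 9224 loci lower at 2 d, 92.4% were at least 2-fold lower at 3 d than in C, against 49.4% of all. The median log2 ratio of 3 d over C was 2.09 in the loci that were higher, against −0.97 in all, and in the loci that were lower its quartiles were −4.14 and −2.04. In the loci at least 8-fold higher at 2 d the median was 4.39, and in those at least 8-fold lower it was −4.61. In 135 of the higher loci and 38 of the lower loci the direction was the opposite by at least 2-fold.

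**Figure D5:**
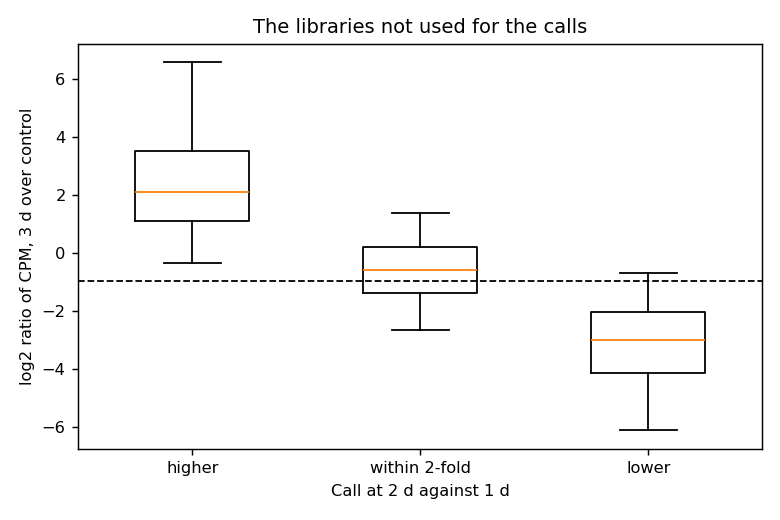
Log2 ratio of CPM at 3 d over the control (vertical axis) for loci called higher, within 2-fold or lower at 2 d over 1 d (horizontal axis). Boxes are quartiles with the median, whiskers the 5th and 95th percentiles, and the dashed line is the median of all loci, −0.97. The median is 2.09 for loci called higher and −0.58 for those within 2-fold, and the box of those called lower spans −4.14 to −2.04.

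The calls were spread over the genome and over the range of expression, but not evenly. By chromosome, the share of loci that were lower ran from 32.4% on chromosome 3 to 43.2% on chromosome 11. Loci were also put into 5 equal bins. In the bin with the most reads, 28.1% were higher and 20.5% lower, whereas in the bin with the fewest reads 20.5% were higher and 44.5% lower. By length of the gene sequence, 27.4% were higher in the bin of the shortest loci and 13.8% in that of the longest. The 590 loci just inside the read minimum had a median of −0.78, and the 684 just outside it had −0.68. For other organs, lists rested on words in the annotation and are not tested markers. Of these, 8 of 65 seed storage loci, 27 of 54 pollen loci and 1 of 8 root loci reached the read minimum. That root locus is annotated as similar to a DNA repair helicase. All 65 seed storage loci held 0.00589% of reads at 2 d and 0.00713% at 1 d. The 54 pollen loci held 0.280% at 2 d and 0.235% at 1 d. Of the 8 seed storage loci at the minimum 3 were higher and 2 lower. Leaf markers were present in all 4 libraries, as the values of RbcS1 and CP29 above show.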

How the data were processed

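RNA was measured in leaves of 4 conditions, 1 library each. The authors trimmed single-end reads, removed duplicates and mapped the rest to RAP-DB gene sequences (IRGSP build 1.0, per the submitters' processing notes) with CLC software. The deposited counts are whole reads per transcript, from strand-specific libraries. Whether strand was used in counting is not given in the sources used here, so overlapping loci may share reads. The deposited log2 ratios, the authors' own comparison with the control, and the normalized values were not used.

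From the counts, 1 transcript per locus was taken (most reads over the 4 libraries), and CPM used the column sum as depth. A count of 0 was set at 3 reads. At these depths 3 reads are 0.0497 CPM at 2 d and 0.0570 CPM at 1 d. Intervals are exact (Clopper-Pearson, 95%), and PCR copies are not independent molecules. Alternatives were TMM, median of ratios, no scaling, other read minimums, 1 read added, summed transcripts and stricter calls. Software was Python 3.11.15, scipy 1.17.1, R 4.3.3, edgeR 4.0.16 and DESeq2 1.42.0.

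The comparison and the 58 gene lists were chosen with earlier results of these data known. The lists were made from annotation words, except for 1 of genes named in the study. Words to exclude took out some loci whose annotation did not match a list's name, but others remained. A proteasome assembly chaperone stayed among the proteasome subunits, and an activator of Hsp90 ATPase among the HSP70, HSP90 and HSP101 loci. Named genes were the 15 highest and 15 lowest ratios and the 4 largest changes in each list, among loci with at least 200 reads. They also included the 10 largest gains and losses in CPM, all members of lists of up to 12 loci and genes named in the study. For these the minimum of 200 reads was not applied. Not all named genes are printed. RAB21, Os01g0170000, Os02g0618200, Os06g0347100, Os04g0690800, Os11g0707000, Os01g0631200, Os09g0287000, the LEA14-type loci and the lower raffinose synthases were chosen after their values were seen. Gene names follow the deposited annotation, which for many loci states only similarity to the named protein. Promoter and protein sequences were not analysed here.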

Additional observations from a re-analysis of the deposited data

How the results depend on the processing

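With 1 library per condition no library was left out, and counting intervals do not include variation between plants. The median log2 ratio over all loci was −0.091 with TMM, −0.030 with the median of ratios, −0.22 without scaling and −0.29 at a minimum of 500 reads, against −0.42. At that minimum 5517 loci were lower, and with a 4-fold call 2795 were higher and 4584 lower. Other settings kept both counts within 1.5 times. The median of 3 d over C in loci higher at 2 d was 2.80 with TMM and 2.92 with the median of ratios, and in loci lower at 2 d it was −2.29 with TMM and −2.18 with the median of ratios. With the median of ratios, 17 pentatricopeptide repeat and 19 NB-ARC loci were higher, against 10 and 12, and of the catalase, superoxide dismutase and ascorbate peroxidase loci 4 were higher and 5 lower, against 2 and 9. Among called values, no named gene, list median or median of 3 d over C reversed its direction under the alternatives run. Other called loci were not checked for this. The other scalings moved all ratios of a comparison by the same amount, smaller than 2-fold, so they could not reverse a call. No paired analysis was possible because each condition had 1 library.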
